A study of Mus musculus with 2 samples.

Results

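Meiotic and germ cell genes were examined in mouse embryonic stem cells that lacked Tcl1 and in clones of them that had been given it back. The set was 10 genes chosen by name, as meiotic and germ cell genes often silenced by promoter methylation. They were Stra8, Sycp1, Sycp3, Tex101, Dazl, Ddx4, Mael, Asz1, Hormad1 and Smc1b, out of 19087 genes named on the arrays. The rule uses no measured value but was drawn up with earlier results of these data known. All 10 were found, on 12 probes, with 2 probes each for Dazl and Hormad1. No filter on low values was applied, so every member entered the fit.

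The study used 2 Agilent arrays, each carrying both kinds of cell in different dyes. On array 1 a Tcl1 stable transformant, clone 1, was labelled with Cy5 and a Tcl1 gene disruptant, clone 4, with Cy3. On array 2 a disruptant, clone 6, that also stably carried a CAG-EGFP vector was labelled with Cy5, and transformant clone 4 with Cy3. Every cell on either array therefore lacked both intact copies of Tcl1, since a PGK-puro cassette had replaced parts of exons 2 and 3. The transformants had in addition the vector CAG-Tcl1ireszeopA, in which the CAG promoter drives Tcl1, and which the labels say went into disruptant clone 4. All cells were grown without feeder cells in medium with serum and LIF on gelatin, below passage 30. Each arm of each array was 1 clone, clone 1 and clone 4 of the transformants share an origin, and the EGFP vector is named for array 2 only. By these labels array 1 set a transformant beside the disruptant clone it came from, and array 2 beside another disruptant, clone 6. On array 2 Tcl1, the EGFP vector and the difference between disruptant clones 4 and 6 therefore cannot be told apart. Each value is a log2 ratio, transformant over disruptant, with array 1 before array 2, and a mean carries its SD over n = 2 arrays.

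The proteins of these genes work in cells that are about to enter or are passing through meiosis, the division that makes eggs and sperm. Retinoic acid switches on Stra8 in germ cells, sister chromatids are then held by meiotic cohesin, and a protein axis and the synaptonemal complex pair the homologous chromosomes. Germ cell RNA-binding proteins and the piRNA pathway, which silences transposons, act in the same cells. Outside the germ line many of these promoters carry DNA methylation, and in embryonic stem cells a Polycomb complex with E2f6, Mga, Max, L3mbtl2 and Pcgf6 also holds a number of them silent.

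Of the 10 genes, 4 read lower in the transformants on both arrays, 2 read higher on both and 4 changed sign between arrays. The 4 low genes were Sycp3, Stra8, Tex101 and Mael, with mean ratios from −1.37 to −0.61. The 2 that read higher were Asz1 (0.55 ± 0.34) and Smc1b (0.09 ± 0.0021). Smc1b lay close to 0, with 63.3% of entries lower on array 1 and 61.6% on array 2. Over all 30110 entries the share was 17.0% for values below 0 both times, 21.0% above 0 both times and 53.4% with opposite signs, and among named genes alone these shares were 19.4%, 22.1% and 55.4%. The member median was −0.17 on array 1, −0.43 on array 2 and −0.24 for the mean of the arrays, against 0 for all entries. None of the 10 passed limma's test with Benjamini-Hochberg adjustment over all entries (adjusted p = 1 for each), a threshold that 0% of all entries passed. Before adjustment, 2 of the 10 had a limma p under 0.05, Stra8 and Tex101, as did 3.15% of all entries (947 entries).

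**Figure D1:**
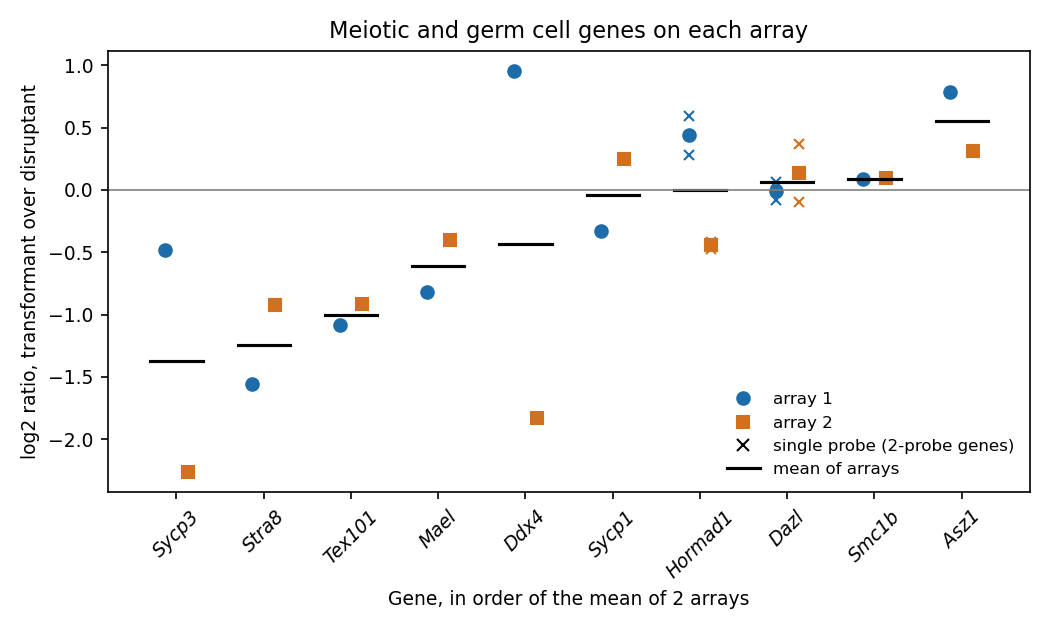
The log2 ratio of transformant over disruptant (vertical axis) is drawn for each of the 10 genes in order of their mean, with circles for array 1, squares for array 2, crosses for single probes of genes with 2 probes and a bar for the mean. Sycp3, Stra8, Tex101 and Mael lie below 0 on both arrays, Smc1b and Asz1 above 0 on both, and the 2 values of Ddx4 lie furthest apart, at 0.96 and −1.83.

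Tcl1 itself could not serve as a check of the labels. Its 1 probe gave −0.37 and 0.17, and its place relative to the replaced exons and the vector's insert was not examined. The direction, Cy5 over Cy3 as deposited, is likely from the convention of the scanner program and not stated, and with the opposite reading every sign would turn together. The arrays ran weakly against each other (Pearson r = −0.19 over all 30110 entries and −0.14 over named genes). Over all 43790 spots r was −0.77. These include the 725 spots dropped as controls, which were picked for low values in both columns before array 2 was turned. Cell type could not be checked from levels, because a ratio holds none, and fewer cells with an RNA cannot be told apart from less RNA per cell. The replicates are 2 pairs of clones, which differ in the disruptant clone and in the EGFP vector. A p-value therefore measures only the spread between these pairs. The smallest two-sided p that exact sign flips of 2 arrays allow is 0.5.

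Stra8, the regulator of entry into meiosis, had −1.56 on array 1 and −0.92 on array 2. The transformant signal was thus 0.340 and 0.527 of the disruptant signal. Both arrays read low, and 0.654% and 5.92% of entries lay lower still. The mean was −1.24 ± 0.45 (SD, n = 2), or 2.36-fold lower, with a 95% interval of −2.37 to −0.11 from limma's moderated error (adjusted p = 1).

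Stra8 answers to retinoic acid, and the other 13 measured genes of retinoic acid supply, reception and meiotic entry lay around 0. Of these, 4 were below 0 on both arrays, 2 above and 7 mixed, with medians of −0.12 and −0.0056, and 0 passed the test. Cyp26a1, an enzyme that breaks down retinoic acid and is itself induced by it, had −0.48 and −0.29. Rarb, a receptor gene that retinoic acid also induces, had 0.77 and 0.28, the opposite side from Stra8. Meioc, a partner in the early meiotic programme, had −0.12 and −0.16. Crabp2, which carries retinoic acid within the cell, had opposite signs with 0.67 and −0.70.

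Among the structural genes of the chromosome axis and synaptonemal complex, Sycp3 and Sycp1 differed in their pattern. Sycp3, which builds the axial and lateral elements, had −0.48 on array 1 and −2.27 on array 2, where the transformant signal was 0.716 and 0.208 of the disruptant signal. On array 1 9.05% of entries lay lower, and on array 2 0.309% did. Sycp3 was thus low on both arrays but by unequal amounts, so that its mean of −1.37 ± 1.26 (SD, n = 2), the lowest of the 10, rests mostly on array 2. The 95% interval ran from −4.42 to 1.67 (limma, adjusted p = 1). Without array 2 the order changed, and Stra8 was the lowest member.

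Sycp1, the transverse filament that zips homologues together, had −0.33 and 0.25. These opposite values gave a mean of −0.04 ± 0.41, with an interval of −1.07 to 0.99. Hormad1, an axis protein that promotes recombination and pairing, also changed sign, with 0.44 and −0.45. Its 2 probes had the same pattern, 0.60 and −0.48 for one and 0.28 and −0.42 for the other, so the opposite signs were not a matter of 1 probe. In Hormad1 Cy5 was the brighter dye on both arrays.

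Smc1b, the meiotic form of a cohesin ring subunit, had 0.09 on each array. The 2 values differed by less than those of any other member (SD 0.0021), and the interval of its mean, −0.24 to 0.42, holds 0. Smc1a, its counterpart in dividing body cells, had 0.62 and 0.56. The 12 measured genes of mitotic cohesin held 1 below 0 on both arrays, 3 above and 8 mixed, with medians of 0.39 and −0.23. Sgo1, which guards centromeric cohesion, had 0.65 and −1.56.

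The other 10 measured genes of the axis and synaptonemal complex lay on the low side more often than the high side, without a call. There were 5 below 0 on both arrays, 1 above and 4 mixed, with medians of −0.05 and −0.28, and 0 passed the test. Syce1, of the central element, had −0.53 and −1.42, a mean of −0.97 ± 0.63, and like Sycp3 it was lower on array 2. The gene that the arrays name 4930447C04Rik, now Six6os1, had −0.19 and −0.58, and its 4 probes ranged in their means from −0.83 to 0.05. Rec8, the meiotic cohesin subunit that retinoic acid also induces, had 0.13 and 0.14. Hormad2, the relative of Hormad1, had −1.57 and 0.78, opposite signs in the reverse order to Hormad1.

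Among the 8 pathway lists, which also cover retinoic acid, repressors and mitotic cohesin, the recombination genes held the lowest mean. Rec114, needed to make the DNA breaks of meiosis, had −1.19 and −2.17. It was the 1 gene among 114 measured in these 8 lists that was at least 2-fold lower on both arrays. Its mean was −1.68 ± 0.69 or 3.20-fold lower (limma, adjusted p = 1), and 0.193% of all entries were 2-fold lower on both arrays. None of the 10 members was (0), since Stra8 and Tex101 missed that limit on array 2 and Sycp3 on array 1. At 1.5-fold there were 2 of 10, Stra8 and Tex101, against 0.950% of all entries. The 16 recombination genes measured held 6 below 0 on both arrays, 1 above and 9 mixed, with medians of −0.13 and −0.12. Brca2, a loader of strand-exchange proteins, had −0.23 and −0.45, Msh5, which stabilizes crossover intermediates, 0.32 and 0.20, and Mlh3, which resolves crossovers, 0.89 and −0.70.

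**Figure D2:**
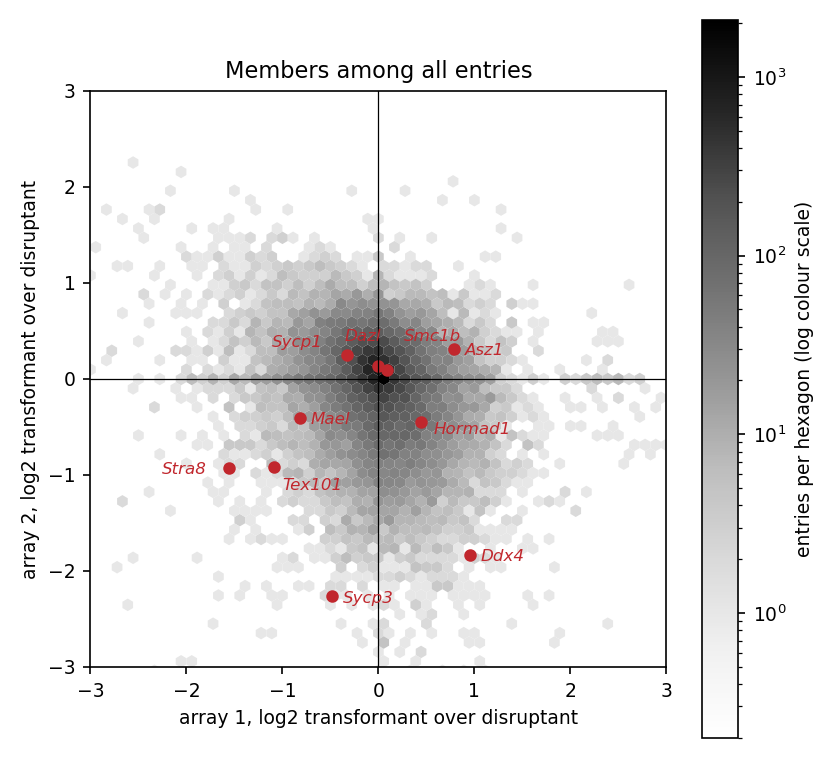
Each entry's log2 ratio on array 1 (horizontal axis) is set against that on array 2 (vertical axis), with the number of entries per hexagon as a grey log scale and the 10 genes in red. Entries beyond the drawn axes are not shown. Stra8, Tex101 and Mael lie to the lower left, Sycp3 far down with a small value on array 1, Ddx4 to the lower right and Dazl and Smc1b at the dense centre.

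Tex101, which encodes a surface glycoprotein of germ cells needed for sperm to travel in the oviduct, had −1.09 and −0.91. Entries lower still made up 1.98% and 6.06%. Its arrays lay closer together than those of the other 3 low genes, with the transformant signal at 0.471 and 0.531 of the disruptant signal. The mean was −1.0 ± 0.12 (SD, n = 2), or 2.00-fold lower, with a 95% interval of −1.44 to −0.56 (limma, adjusted p = 1).

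The genes of spermatids and sperm, the later stages in which Tex101 acts, did not share its low values. Both arrays were below 0 for 2 of 16, above for 2 and mixed for 12, with medians of −0.04 and 0.05, and 0 passed the test. Dpep3, which encodes a dipeptidase of germ cells that binds Tex101 protein, had 0.24 and 0.34. Acr, the acrosin gene, had −0.11 and −0.31, Tnp1, a transition protein of sperm chromatin, 0.16 and 0.23, and Izumo1, the sperm protein of egg fusion, 0.28 and −0.42.

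The RNA-binding proteins Dazl and Ddx4 gave no shared direction on the arrays. Dazl, which promotes translation in germ cells, had −0.0095 and 0.13. Its 2 probes lay on opposite sides of 0, at −0.08 and −0.10 for one and 0.06 and 0.37 for the other, and the interval of its mean, −0.35 to 0.47, holds 0. Ddx4, the mouse Vasa RNA helicase of germ cell granules, had 0.96 on array 1 and −1.83 on array 2. The first value lay above 97.7% of entries and the second above 0.734%. Cy5 was therefore the brighter dye both times, the 2 values of Ddx4 lay further apart than those of any other member, and the mean of −0.44 ± 1.97 describes neither array. Over all entries 3.49% were at least 1.5-fold apart from 0 in opposite directions, as Ddx4 was.

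Among the 13 measured regulators of germ cell fate and gonad development, 5 were below 0 on both arrays, 3 above and 5 mixed. Their medians were −0.10 and −0.14, and 0 passed the test. Kit, the receptor of germ cells and their precursors, had −0.99 and −1.15 (mean −1.07 ± 0.11), and Boll, the relative of Dazl, −0.70 and −0.80. Dnd1, an RNA-binding protein that germ cells need to survive, lay on the other side with 0.61 and 0.89. Nanos1 had 1.26 and −0.17.

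Mael and Asz1, both of the piRNA pathway, stood on opposite sides of 0. Mael, which silences transposons in germ cells, had −0.82 and −0.41, with 3.77% and 18.2% of entries lower still. Its mean was −0.61 ± 0.29 or 1.53-fold lower (interval −1.38 to 0.16). Asz1, a scaffold on germ cell mitochondria where piRNAs are made, had 0.79 and 0.32, above 96.0% and 83.2% of entries. Its mean was 0.55 ± 0.34 or 1.47-fold higher (interval −0.32 to 1.42). For each of them the value on array 1 was further from 0 than that on array 2, and neither passed limma's test (adjusted p = 1). The higher value of Mael lay below the lower value of Asz1, which follows from their lying on opposite sides of 0.

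The other 15 measured piRNA genes held 4 below 0 on both arrays, 2 above and 9 mixed, with medians of −0.14 and −0.21, and 0 passed the test. Tex19.1, a mammalian gene that curbs retrotransposons and is known to be held down by promoter methylation, had −1.46 and −0.92. Gtsf1, a partner of Piwi proteins, had −0.60 and −0.72, and its 2 probes had means of −1.01 and −0.32. Piwil2 had −0.29 and −0.75, but its 2 probes disagreed in sign, with means of −1.28 and 0.25. Henmt1, which methylates the ends of piRNAs, had −0.37 and 0.65.

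Ordered by mean ratio from the lowest, the 10 genes were Sycp3, Stra8, Tex101, Mael, Ddx4, Sycp1, Hormad1, Dazl, Smc1b and Asz1. Of the 9 steps between neighbours only 2 were larger than the SD of both genes, the step from Tex101 to Mael (0.39) and that from Smc1b to Asz1 (0.46). The other 7 steps were within the spread of the arrays, so 2 arrays do not resolve those neighbours from each other. Genes further apart in the order were not compared here by these steps.

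**Figure D3:**
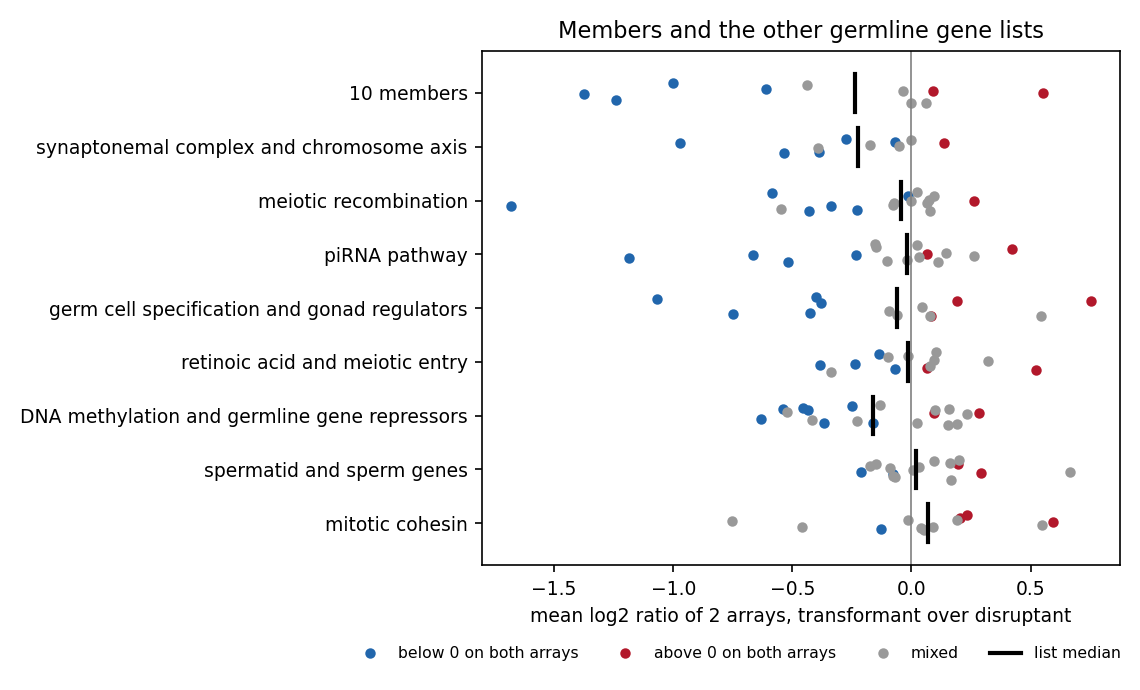
Each dot is the mean log2 ratio of 2 arrays (horizontal axis) of 1 gene, for the 10 genes and 8 other lists, coloured by whether both arrays lay below 0, above 0 or neither, with a bar at each list's median. The medians run from −0.24 for the 10 genes to 0.07 for mitotic cohesin, and the recombination gene Rec114 is the lowest dot at −1.68.

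Genes linked to DNA methylation and to the repression of germ cell genes were mixed. The 19 measured were of the methylation machinery, Tet1 and Tet2 included, histone methyltransferases and the Polycomb complex with its partners. Of these, 7 were below 0 on both arrays, 2 above and 10 mixed, with medians of −0.08 and −0.29, and 0 passed the test. The 2 above were Ring1 (0.13 and 0.44) and Tet1 (0.06 and 0.13). Tet1 and Tet2 are not counted as repressors here. E2f6, which recruits the Polycomb complex, had −0.39 and −0.49, the same sign on both of its probes. Dnmt3l, the cofactor of new DNA methylation, had −0.83 and −0.43, and Setdb1, a histone H3 lysine methyltransferase, −0.79 and −0.29. Yaf2, a partner of the complex, had 1.11 and −0.64. The share below 0 on both arrays was 36.8% of the 19, against 17.0% of all entries and 19.4% of named genes. It was 50% for axis and synaptonemal complex genes, 38.5% for germ cell regulators and 37.5% for recombination genes. For retinoic acid genes it was 30.8%, for the other piRNA genes 26.7%, for spermatid and sperm genes 12.5% and for mitotic cohesin 8.33%. None of these differences was tested, and neither was any part of the 19 genes in the values of Sycp3, Stra8, Tex101 and Mael. DNA methylation was not measured.

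The upstream sequences of the 10 genes were examined because many such promoters are targets of methylation, and a number of them of the complex with E2f6. Whether each of the 10 is such a target was not examined. The 250 bases before a RefSeq start of each gene (assembly GRCm38.p6) were used, and all 10 were matched. The number of CpG dinucleotides, the sites of methylation, ran from 5 in Stra8 to 31 in Ddx4, with a median of 17.5. For 15306 genes named on the arrays the median was 11.0 and the quartiles 4.0 and 20.0, and 9 of the 10 genes lay above that median. The 10 were chosen as genes often silenced by promoter methylation, so their CpG numbers may follow from that choice. Stra8, 1 of the 4 low genes, had the fewest, and the other 3 had 12 in Sycp3, 14 in Tex101 and 18 in Mael, against 15 in Asz1, which read higher. The 4 low genes and Asz1 are printed 5′ to 3′ to show how the CpG sites of genes on opposite sides of 0 are spread. Capitals mark every CpG.
Sycp3, chr10:88459337-88459586, plus strand: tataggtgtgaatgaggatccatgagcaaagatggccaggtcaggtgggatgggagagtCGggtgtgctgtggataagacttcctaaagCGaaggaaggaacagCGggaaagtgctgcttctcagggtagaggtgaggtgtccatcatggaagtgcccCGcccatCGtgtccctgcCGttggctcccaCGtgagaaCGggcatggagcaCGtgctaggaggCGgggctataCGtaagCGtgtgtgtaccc
Stra8, chr6:34920698-34920947, plus strand: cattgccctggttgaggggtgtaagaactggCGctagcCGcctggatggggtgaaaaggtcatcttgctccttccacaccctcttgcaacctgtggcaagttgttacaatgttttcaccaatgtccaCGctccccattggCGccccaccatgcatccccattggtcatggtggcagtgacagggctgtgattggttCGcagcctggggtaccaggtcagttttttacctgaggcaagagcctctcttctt
Tex101, chr7:24672051-24672300, minus strand: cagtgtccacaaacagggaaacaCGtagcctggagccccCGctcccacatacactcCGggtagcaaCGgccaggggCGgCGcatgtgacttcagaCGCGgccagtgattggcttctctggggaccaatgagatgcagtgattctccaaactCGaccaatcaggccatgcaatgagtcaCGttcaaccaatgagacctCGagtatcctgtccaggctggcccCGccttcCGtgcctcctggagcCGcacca
Mael, chr1:166238745-166238994, minus strand: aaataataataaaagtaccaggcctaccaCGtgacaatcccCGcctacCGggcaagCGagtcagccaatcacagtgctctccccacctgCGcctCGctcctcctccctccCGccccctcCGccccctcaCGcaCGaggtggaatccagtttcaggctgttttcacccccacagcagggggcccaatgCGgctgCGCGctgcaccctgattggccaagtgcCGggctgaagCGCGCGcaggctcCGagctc
Asz1, chr6:18109062-18109311, minus strand: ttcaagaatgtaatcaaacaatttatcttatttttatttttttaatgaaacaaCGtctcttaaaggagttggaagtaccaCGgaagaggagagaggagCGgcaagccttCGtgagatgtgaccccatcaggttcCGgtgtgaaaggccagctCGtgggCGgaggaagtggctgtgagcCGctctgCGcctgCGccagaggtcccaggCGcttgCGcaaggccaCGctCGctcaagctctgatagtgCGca

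In these windows the letters GCGGGA, the core of an E2F site, were found on either strand in 5 of the 10 genes, against 23.6% of the 15306 named genes. The E-box CACGTG, which reads the same on both strands and which Mga and Max bind, was in 5 of 10, against 7.13%. Both motifs were in 4 genes, Sycp3, Mael, Ddx4 and Hormad1, against 2.21%, and no motif match overlapped another (0). Among these, Sycp3 and Mael read lower on both arrays and Ddx4 and Hormad1 changed sign. Tex101, which read low, Dazl, near 0, and Asz1, which read high, held none of the motifs searched. The part of any motif in the ratios was not tested. The half-site AGGTCA of retinoic acid and other nuclear receptors was found at 194 and 38 bases before the start of Stra8, once each in Sycp3 and Hormad1, and in 11.9% of named genes. Both GCGGGA and CACGTG hold a CpG. The median CpG number was 17.5 in the 10 genes and 11.0 in the named genes, and the comparison was not matched for it. The motif shares may also follow from how the 10 genes were chosen. A match describes the letters alone, and binding was not measured.

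**Figure D4:**
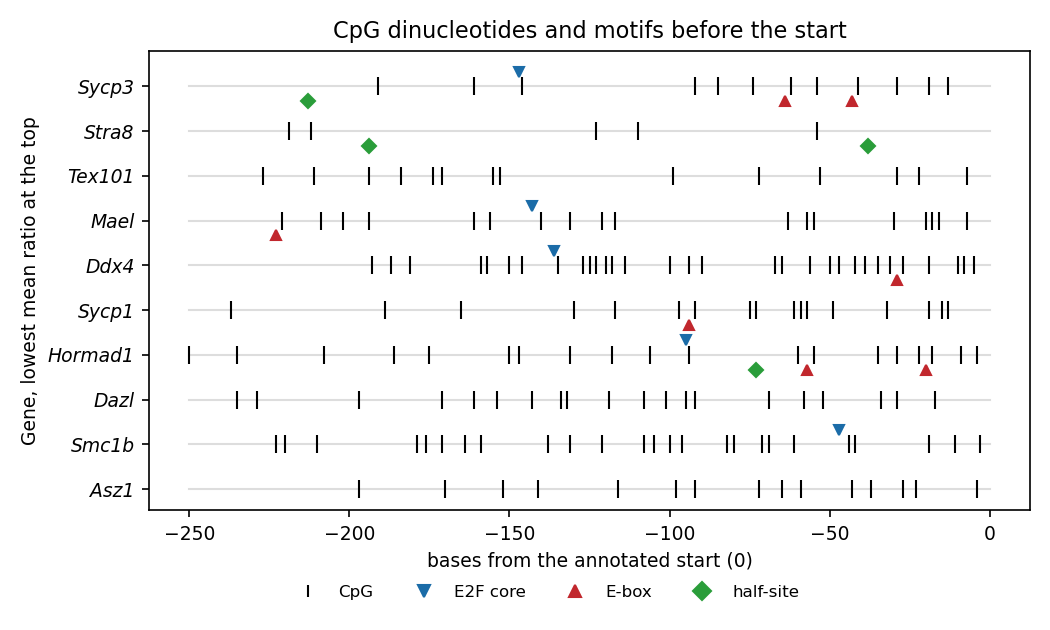
For each of the 10 genes, ordered by mean ratio from the lowest, ticks mark CpG dinucleotides, downward triangles GCGGGA, upward triangles CACGTG and diamonds AGGTCA, by distance in bases from the annotated start at 0 (horizontal axis). Stra8 has 5 CpG and 2 half-sites, Ddx4 has 31 CpG, and the windows of Tex101, Dazl and Asz1 hold CpG alone.

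Markers of embryonic stem cells were mostly below 0, without a call. Both arrays were below 0 for 6 of the 7 and above for 1, with medians of −0.67 and −0.72 and a range of list members from −1.56 to 0.10 on array 1 and from −1.70 to 0.50 on array 2. Zfp42, a marker of the naive state, had −1.54 and −1.70, Nanog −0.95 and −1.04, and Klf4 −1.55 and −0.72. Pou5f1, the gene of the core factor Oct4, was the 1 marker above 0 on both arrays, with 0.10 and 0.50, and is named after its values were seen. Markers of 2-cell-like cells, a rare state in these cultures in which some germ cell genes are active, had 5 of 6 below 0 on both arrays and 0 above, with medians of −0.18 and −0.21. Gm8300 had −0.34 and −1.92, Tcstv1 −0.84 and −0.71, Tcstv3 −0.19 and −0.29, and Zscan4c −0.17 and 0.04. The 3 probes of Tcstv1 ranged in their means from −1.81 to −0.21.

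Markers of other cell types differed between the arrays. Primitive endoderm markers were all below 0 on array 1 (7 of 7, median −0.17), and on array 2 only 1 of 7 was (median 0.30). Trophoblast markers had 3 of 7 below 0 on array 1 and 5 of 7 on array 2 (medians 0.17 and −0.36), and fibroblast markers 5 of 7 and 3 of 7 (medians −0.06 and 0.02). Below 0 on both arrays were 1 of 7 primitive endoderm markers (Pdgfra, −0.10 and −0.35), 2 of 7 trophoblast markers (Eomes, −0.51 on each array, and Elf5, −0.36 and −0.93) and 2 of 7 fibroblast markers (Thy1, −1.06 and −0.91, and Vim, −0.26 and −0.23). Above 0 on both were 0, 1 (Hand1, 0.76 and 0.23) and 1 (Pdgfrb, 1.38 and 0.46), and Foxa2, Cdx2 and S100a4 had opposite signs. The part of any of these cell states in the values of the 10 genes was not tested, and 0 markers of these lists passed the test.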

How the data were processed

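The authors' deposited table held 1 value per spot, 43790 spots on each of 2 arrays. Per the submitters' processing notes these came from Agilent Feature Extraction. Its version and normalization were not given in the sources used here. Numbers in the authors' deposited table were taken as log10 of Cy5 over Cy3 (medians 0 and 0, range −2.69 to 1.89), an inferred scale and direction with unknown centring. Intensities were not analysed here, so signal over background is unknown.

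Log2 values were obtained by a factor of 3.32, with array 2 turned to read transformant over disruptant. Spots without annotation that lay below −1 in both columns (725, against 0 annotated spots) were dropped as controls. Symbols came from GEO's platform annotation (1 symbol for 32042 probes, several for 47, none for 11701). Averaging probes left 30110 entries.

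The mean ratio was tested against 0, two-sided, by limma 3.58.1 (lmFit, eBayes) under R 4.3.3, with Benjamini-Hochberg adjustment over all entries at 0.05 and 0.861 prior degrees of freedom, after being tested on simulated data. Alternatives covered centring, scale, zeros, probes, direction, variance model, fold limit and single arrays. Named in the 8 pathway and 5 marker lists were up to 3 genes of 1 sign and 1 of opposite signs with the largest smaller-array values. Members and lists were chosen with earlier results of these data known, and motifs after values were seen.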

Additional observations from a re-analysis of the deposited data

How the results depend on the processing

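The count of entries called was 0 under each setting tried (robust eBayes, single probes, exact zeros left out, listed probes alone, control spots kept), with 488 to 1274 entries at an unadjusted limma p under 0.05. For the 10 genes, centring on named genes, a log2 reading, exact zeros left out and the median of probes kept the direction of each mean and the counts below and above 0. The member median of −0.24 was −0.071 with the log2 reading, which shrinks every value alike, and −0.078 with each of the 12 probes counted by itself, where 5 were below 0 on both arrays. With array 2 not turned, which goes against the dye labels, 2 genes were below 0 on both arrays, the median was −0.037, and 5 means changed sign, with Sycp3 at 0.89, Ddx4 at 1.39, Hormad1 at 0.44, Dazl at −0.072 and Smc1b at −0.0015. That reading subtracts what the arrays have in common. Hormad1 also changed sign with the arrays scaled to one SD (0.013). A 1.5-fold limit gave 2 genes lower on both arrays, against 0 at 2-fold.

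Each array by itself gave 6 genes below 0 and 4 above, and 2 genes at least 2-fold lower, Stra8 and Tex101 on array 1 and Sycp3 and Ddx4 on array 2. Leaving out 1 array moved the member median between −0.43 and −0.17. The means then took the single arrays' values, which leave no residual degrees of freedom for a test. Of 56 values of pathway list medians under other settings, 16 moved by more than the spread of the arrays. No paired analysis was possible because the result is a ratio within each array and there is 1 group of arrays.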
